A study of Mus musculus with 10 samples.

Results

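The cell cycle and DNA replication genes are 36 mouse genes of the machinery by which a cell copies its DNA and divides, and their messenger RNA was compared here in pancreatic islets at 2 times of day. The set was given by name and not by measured values. It holds 13 genes of G1 and of its control, 10 genes of S phase and 13 genes of G2 and mitosis. A member was read from the array row that names it alone or, failing that, from a row that names it with other genes, and of several rows the one with the highest mean was taken. By this rule 35 of the 36 genes were measured among 32814 array rows that name a gene, 32 of them from a row of their own. Ccnd1 was read from a row that also names Mir3962, Mcm7 from a row shared with Mir93 and Mir25, and Foxm1 from a row shared with Tex52, so these 3 signals may include the neighbouring transcripts. Ccnb1 was not analysed here.

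Islets are small groups of endocrine cells within the pancreas, mostly insulin-secreting beta cells. They were isolated from male C57BL/6 mice (C57Bl/6J in the study's methods), an inbred laboratory strain with no genetic change, and kept in culture for 24 h. The age is given as 10 weeks. In the methods some weeks of acclimatization come between that age and isolation, so the mice may have been older when islets were taken. RNA of 5 samples at ZT20 and 5 samples at ZT8 was put on 1 array each. ZT, zeitgeber time, counts hours from lights on in a cycle of 12 h light and 12 h dark, so ZT20 lies in the night, when mice are active, and ZT8 in the day. The sample titles write CT20 and CT8 and call the samples biological replicates. The ZT20 mice were housed under an inverted light cycle and the ZT8 mice under the normal one, so that time of day and housing cannot be told apart. The values are deposited log2 signals, where a difference of 1 is a doubling, and differences are ZT20 minus ZT8 throughout. With 5 arrays a group, the array number limits the precision.

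The islet hormones and their granule proteins were at the top of the scale on every array, with a mean of 6 endocrine markers of 12.76 to 12.82 at ZT20 and 12.74 to 12.86 at ZT8. Markers of acinar cells, which surround islets and are carried along in isolation, were present and uneven. The mean of 5 markers was 10.3 to 11.8 at ZT20 and 10.3 to 11.9 at ZT8. Among them the digestive enzyme genes Cpa1, Cela1, Cela2a and Cel had group means between 11.73 and 12.76. The endocrine markers had group means between 12.08 and 13.34. Ptf1a, the acinar transcription factor gene in the mean, was at 6.35 at ZT20 and 6.56 at ZT8. Nr1d1, the gene of the clock repressor REV-ERB alpha, was at 7.83 ± 0.228 at ZT20 and 8.998 ± 0.115 at ZT8 (SD, n = 5 each). Its difference of -1.17 (SE 0.0988) passed the limma test at an adjusted p of 0.00116. Nr1d1 is known to peak by day in mouse tissues. The mean of 23 background control rows was 4.24 to 4.33 at ZT20 and 4.07 to 4.20 at ZT8, without overlap.

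Cells pass through G1, in which the decision to divide is taken, S phase, in which DNA is copied, G2, and mitosis. D-type cyclins with CDK4 or CDK6, and then cyclin E with CDK2, phosphorylate the retinoblastoma protein RB1, which frees E2F factors to switch on the replication genes, and CDK inhibitors oppose these kinases. Beta cells of adult islets divide rarely, depend largely on cyclin D2 and CDK4 for their growth, and express inhibitors such as the product of Cdkn2a more strongly with age. The circadian clock is tied to the cycle in other tissues, above all in mouse liver, where Wee1, a kinase gene that holds back mitosis, is under E-box control by the clock factors.

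No member passed the test between ZT20 and ZT8. Of 35 measured members, 0 had an adjusted p under 0.05, beside 0.744% of all 32814 rows (244 rows, with 0.177% of all rows called higher and 0.567% called lower at ZT20). The adjusted p of the members ran between 0.175 and 0.992. Before adjustment 6 members, or 17.1%, lay under 0.05, beside 18.5% of all rows, so that the share among the members was close to that of the array as a whole. Cdkn2a and Aurkb had higher means at ZT20, beside 10.2% of all rows on this side. Rb1, Mcm6, Cdc20 and Wee1 had lower means at ZT20, beside 8.37% of all rows. The methods' t-test, a test for unequal variances, left 0 members after adjustment, beside only 2 of all 32814 rows. Before adjustment it left 6, with Ccnd3 in the place of Wee1, beside 2953 rows higher and 2482 lower at ZT20.

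The differences in signal were small. Over the 35 members the 95% confidence limits of the difference extended no further than -0.54 and 0.34, which are folds of 0.687 and 1.26 of ZT20 over ZT8. In 14 members the mean was higher at ZT20 and in 21 it was lower. The median difference was -0.03 over the 13 G1 genes, -0.0095 over the 10 S phase genes and -0.03 over the 12 measured genes of G2 and mitosis, beside 0.03 over all rows. In 0 of 35 members were the ZT20 arrays all on one side of the ZT8 arrays, as they were in 5.92% of all rows (2.54% with ZT20 above and 3.39% with ZT20 below). RNA of whole islets was measured, so that fewer cells of a kind and less RNA per cell cannot be told apart.

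**Figure D1:**
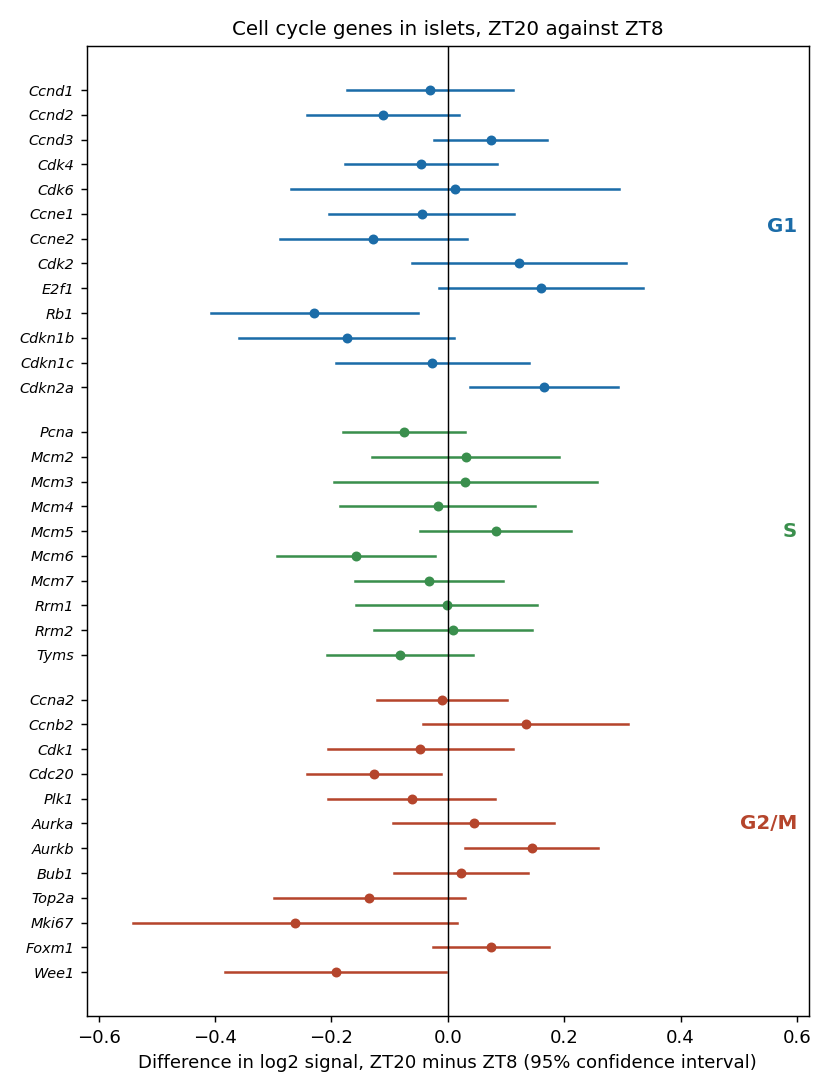
Difference in log2 signal, ZT20 minus ZT8, for each of the 35 measured members (rows, grouped by phase), as the limma estimate (points) with its 95% confidence interval (lines). The estimates lie between -0.26 for Mki67 and 0.16 for Cdkn2a, and the intervals of 29 members cross the vertical line at 0.

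Among the D-type cyclins, which start G1 progression, Ccnd2 is the one that rodent beta cells rely on most. Its signal was 11.80, 11.64, 11.73, 11.74 and 11.82 on the 5 ZT20 arrays, against 11.68, 11.93, 11.88, 11.84 and 11.95 on the 5 ZT8 arrays. Of the ZT8 arrays 4 lay above every ZT20 array, and replicate 1 lay within the ZT20 range. The difference was -0.11 (SE 0.0601, 95% interval -0.24 to 0.02, adjusted p = 0.339).

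Ccnd1 is expressed in many growing tissues. It read 9.18, 9.20, 9.33, 9.27 and 9.34 at ZT20 and 9.08, 9.36, 9.39, 9.24 and 9.38 at ZT8, and all ZT20 arrays lay within the wider ZT8 range. Its difference was -0.03 (SE 0.0658, adjusted p = 0.827). Ccnd3, the third D-type cyclin, read 7.66, 7.67, 7.64, 7.76 and 7.68 at ZT20 and 7.62, 7.56, 7.66, 7.64 and 7.56 at ZT8. Here 2 of the ZT8 arrays fell within the ZT20 range, and the difference was 0.07 (SE 0.0449, adjusted p = 0.387).

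The kinases that these cyclins activate gave 10.48 ± 0.0836 at ZT20 and 10.52 ± 0.100 at ZT8 for Cdk4 (SD, n = 5 each), with an interval of the difference of -0.18 to 0.08. Cdk6 had the largest standard error of all members, 0.13, just above that of Mki67. It read 6.80, 6.44, 6.19, 6.63 and 6.45 at ZT20 and 6.86, 6.60, 6.52, 6.28 and 6.20 at ZT8, so that each group spanned the other almost completely. With that spread its interval was -0.27 to 0.29, the least informative of the G1 genes.

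Cyclin E and its partner kinase act at the end of G1. Ccne1 and Ccne2 differed by -0.05 and -0.13 and the kinase gene Cdk2 by 0.12, with adjusted p of 0.761, 0.363 and 0.444. E2f1, the transcription factor released by RB1, was at 7.95 ± 0.138 at ZT20 and 7.79 ± 0.144 at ZT8 (SD, n = 5 each). Its difference was 0.16 (SE 0.0808, 95% interval -0.01 to 0.34, adjusted p = 0.306).

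The brakes on G1 had differences of mixed sign. Rb1, which encodes the retinoblastoma protein, read 8.34, 8.06, 8.36, 8.44 and 8.51 at ZT20, against 8.48, 8.51, 8.53, 8.57 and 8.75 at ZT8. Of the ZT20 arrays 4 lay below every ZT8 array, and replicate 5 lay among them. The difference was -0.23 (SE 0.0822, 95% interval -0.41 to -0.05), a fold of 0.853, with an unadjusted p of 0.0157 and an adjusted p of 0.177. The other 2 array rows of Rb1, which are far dimmer, differed by -0.10 and 0.09, and the mean of its 3 rows by -0.08 (adjusted p = 0.55).

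Cdkn1b encodes a CDK inhibitor of quiescent cells. Its signal was 7.99, 8.06, 8.27, 8.03 and 8.19 at ZT20, against 8.04, 8.25, 8.29, 8.28 and 8.54 at ZT8. ZT8 replicate 5 was the highest of all 10 arrays and ZT8 replicate 1 lay among the low ZT20 arrays. The difference was -0.17 (SE 0.0851, 95% interval -0.36 to 0.01, adjusted p = 0.295).

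Cdkn1c, an imprinted CDK inhibitor gene of endocrine cells, read 7.06, 7.06, 6.81, 6.92 and 6.79 at ZT20 and 7.08, 7.12, 6.87, 6.89 and 6.83 at ZT8. In both groups replicates 1 and 2 were the highest arrays, and the difference of -0.03 was a fraction of the spread within each group (SD 0.131 in both). Cdkn2a, which encodes inhibitors that accumulate in ageing islets, read 6.32, 6.47, 6.31, 6.19 and 6.26 at ZT20 and 6.20, 6.20, 6.10, 6.04 and 6.20 at ZT8. Of the ZT20 arrays 4 lay above every ZT8 array, and replicate 4 lay within the ZT8 range. The difference was 0.16 (SE 0.0588, 95% interval 0.04 to 0.29), a fold of 1.12, with an unadjusted p of 0.0154 and an adjusted p of 0.175, the lowest of the members.

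**Figure D2:**
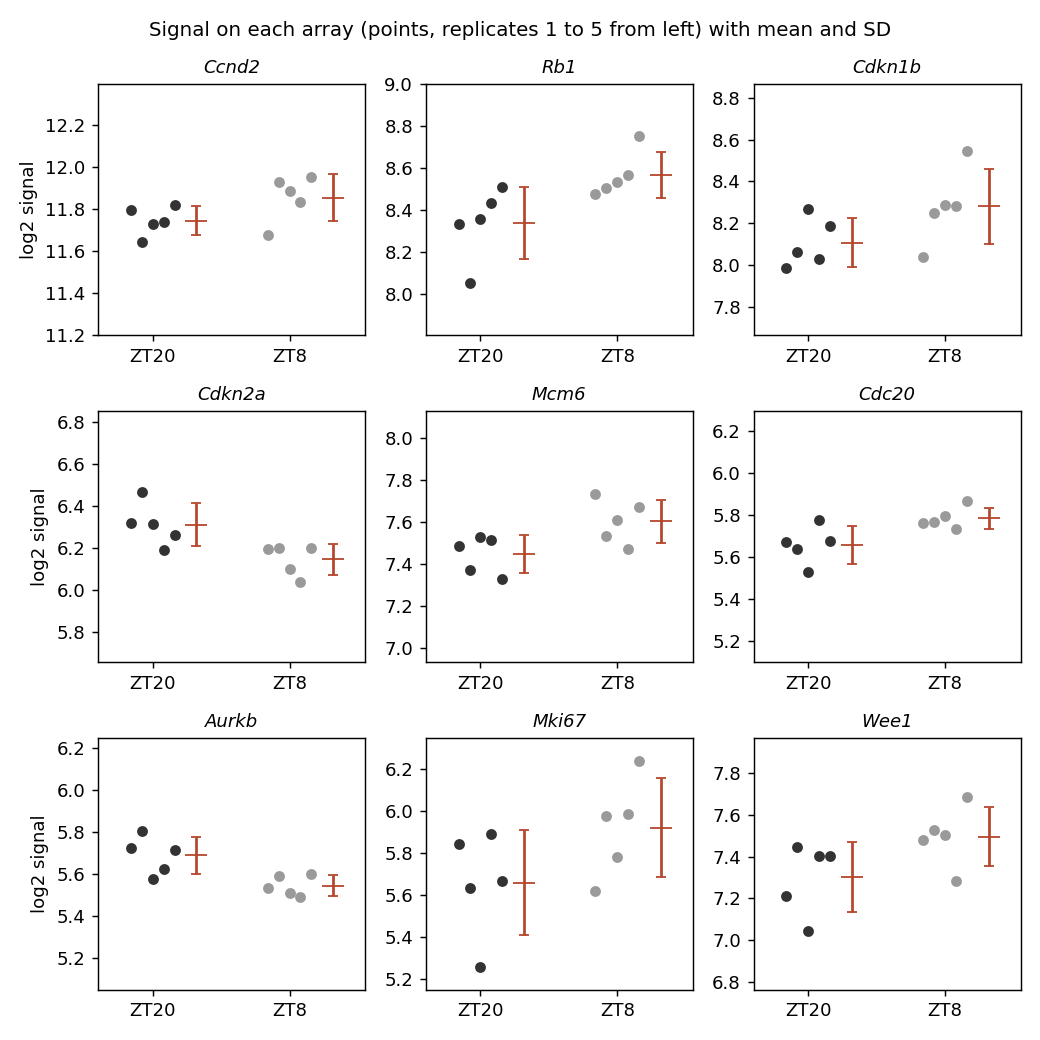
Log2 signal (vertical axes, one panel per gene, all spanning the same number of log2 units) on the 5 ZT20 arrays (black points) and the 5 ZT8 arrays (grey points), replicates 1 to 5 from left in each group, with the mean and SD (red bars). In all 9 genes the groups overlap, and in Mki67 the lowest ZT20 array is replicate 3 at 5.26 and the highest ZT8 array replicate 5 at 6.24.

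The S phase genes gave the smallest differences of the 3 phases, between -0.16 and 0.08. The 6 subunits of the MCM helicase, which opens the double helix ahead of the replication fork and works as a complex with 1 copy of each, were not shifted together. Mcm2, Mcm3 and Mcm5 had positive differences of 0.03, 0.03 and 0.08, Mcm4, Mcm6 and Mcm7 negative ones of -0.02, -0.16 and -0.03. Mcm6 read 7.49, 7.37, 7.53, 7.51 and 7.33 at ZT20, against 7.73, 7.54, 7.61, 7.47 and 7.67 at ZT8. Of the ZT8 arrays 4 lay above every ZT20 array, and replicate 4 lay among them. Its difference had an SE of 0.0624 and a 95% interval of -0.29 to -0.02, a fold of 0.897, with an unadjusted p of 0.0259 and an adjusted p of 0.215.

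Mcm5 read 6.68, 7.00, 6.79, 6.82 and 6.77 at ZT20 and 6.67, 6.68, 6.75, 6.77 and 6.79 at ZT8, and a single array, ZT20 replicate 2, stood above the rest. Tyms, the enzyme that makes thymidylate for DNA, read 7.56, 7.60, 7.60, 7.52 and 7.71 at ZT20 and 7.56, 7.65, 7.70, 7.83 and 7.65 at ZT8. Its difference was -0.08 (SE 0.058, adjusted p = 0.452), and the groups overlapped over most of their range. Pcna, the sliding clamp of DNA polymerase, was at 9.86 ± 0.0796 at ZT20 and 9.94 ± 0.0277 at ZT8 (SD, n = 5 each), a difference of -0.08 (adjusted p = 0.413).

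Ribonucleotide reductase supplies deoxyribonucleotides. Its large subunit gene Rrm1 differed by -0.0018 with an interval of -0.16 to 0.15, and its S phase subunit gene Rrm2 by 0.0093 with an interval of -0.13 to 0.15. Over all 10 S phase genes the confidence limits stayed within folds of 0.816 and 1.19 of ZT20 over ZT8.

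The genes of G2 and mitosis are transcribed late in the cycle and mark dividing cells. None of the 12 measured ones stood above the brightest background control row on all 10 arrays, as 7 of the 13 G1 genes and 6 of the 10 S phase genes did. Wee1 stood above it on 9 arrays. This brightest row is a high bar, at 7.11 to 7.35 at ZT20 and 6.83 to 7.08 at ZT8. The median of all gene rows was lower on every array, 6.23 to 6.35 at ZT20 and 6.17 to 6.27 at ZT8, so most gene rows lay below the bar too. Bub1, a spindle checkpoint kinase gene, was at 3.44 ± 0.0889 at ZT20 and 3.42 ± 0.0529 at ZT8 (SD, n = 5 each), and it alone was not above the median background row on every array. Near background an array compresses differences, so these sizes may be understated. The background rows themselves had a higher mean at ZT20, 4.27 against 4.14 at ZT8. The part of this in the differences of dim genes was not tested.

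Mki67 encodes the Ki-67 protein of proliferating nuclei. It read 5.84, 5.64, 5.26, 5.89 and 5.67 at ZT20, against 5.62, 5.98, 5.78, 5.99 and 6.24 at ZT8. ZT20 replicate 3 was the lowest of all arrays and ZT8 replicate 5 the highest, while the other 8 arrays lay between 5.62 and 5.99. The difference was -0.26 (SE 0.128, 95% interval -0.54 to 0.02), a fold of 0.834 and the largest in size among the members, with an adjusted p of 0.295. Without ZT20 replicate 3 the difference was -0.16.

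Top2a, the topoisomerase that untangles chromosomes, followed the same outer arrays. It read 4.72, 4.65, 4.48, 4.81 and 4.68 at ZT20 and 4.79, 4.79, 4.66, 4.75 and 5.03 at ZT8. The difference was -0.13 (SE 0.0758, 95% interval -0.30 to 0.03, adjusted p = 0.355).

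Wee1 encodes the kinase that inhibits CDK1 until the cell is ready for mitosis. Its signal was 7.21, 7.45, 7.05, 7.40 and 7.40 at ZT20, against 7.48, 7.53, 7.50, 7.28 and 7.68 at ZT8. Of the ZT8 arrays 4 lay above every ZT20 array, and replicate 4 lay among them. The difference was -0.19 (SE 0.0876, 95% interval -0.38 to -0.0029), a fold of 0.875, with an unadjusted p of 0.0471 and an adjusted p of 0.264. Nr1d1, on the same arrays, differed by -1.17.

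The regulators of anaphase and of the spindle were split. Cdc20, an activator of the ubiquitin ligase that starts anaphase, read 5.67, 5.64, 5.53, 5.78 and 5.68 at ZT20, against 5.76, 5.77, 5.79, 5.73 and 5.87 at ZT8. ZT20 replicate 4 alone reached the ZT8 range. The difference was -0.13 (SE 0.053, 95% interval -0.24 to -0.01, unadjusted p = 0.0329, adjusted p = 0.233).

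Aurkb, a kinase of chromosome alignment and cytokinesis, had the opposite sign. It read 5.73, 5.81, 5.58, 5.62 and 5.71 at ZT20, against 5.53, 5.59, 5.51, 5.49 and 5.60 at ZT8. Of the ZT20 arrays 4 lay above every ZT8 array, and replicate 3 lay within their range. The difference was 0.14 (SE 0.0528, 95% interval 0.03 to 0.26, unadjusted p = 0.0178, adjusted p = 0.187). The related kinase genes Aurka and Plk1 differed by 0.04 and -0.06, and the transcription factor gene Foxm1, which drives this program, by 0.07, with adjusted p of 0.728, 0.621 and 0.393.

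The mitotic kinase gene Cdk1 and its cyclins are the core of the step into mitosis. Cdk1 differed by -0.05 and Ccna2 by -0.01, with adjusted p of 0.75 and 0.929. Ccnb2 was at 6.03 ± 0.182 at ZT20 and 5.90 ± 0.0858 at ZT8 (SD, n = 5 each). Its difference was 0.13 with an interval of -0.04 to 0.31 and an adjusted p of 0.386.

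In the genes of G2 and mitosis 1 array of each group stood apart in most of the genes. ZT20 replicate 3 was the lowest array of its group in 9 of the 12 genes, on average 0.159 below the mean of each gene over the 10 arrays. ZT8 replicate 5 was the highest array of its group in 8 of the 12, on average 0.101 above that mean. The 13 G1 genes and the 10 S phase genes had average deviations between -0.064 and 0.063 on every array. Single arrays stood out by count in the G1 genes too. ZT8 replicate 1 was the lowest of its group in 8 of the 13, and ZT20 replicate 5 the highest in 6. The median deviation of the G1 genes on ZT8 replicate 1 was -0.105. That of the genes of G2 and mitosis on ZT20 replicate 3 was -0.11. ZT20 replicate 3 also had the highest mean of macrophage and leukocyte markers, 7.10 on a range of 6.63 to 7.10 at ZT20 and 6.69 to 6.90 at ZT8, and ZT8 replicate 5 the lowest background mean, 4.07. The part of these in the deviations was not tested.

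**Figure D3:**
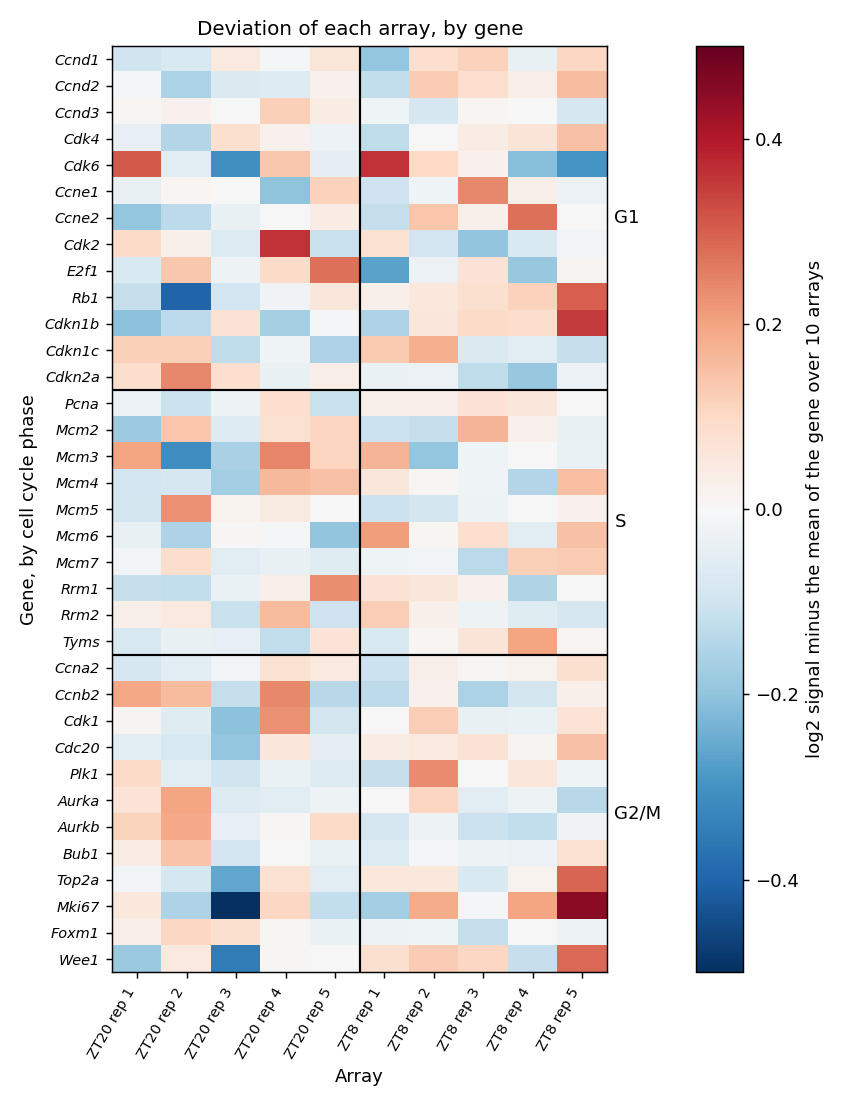
Log2 signal minus the mean of each gene over the 10 arrays (colour scale, red above and blue below), for the 35 members (rows, by phase) on the ZT20 arrays (left 5 columns) and the ZT8 arrays (right 5 columns). In the rows of G2 and mitosis ZT20 replicate 3 is mostly blue and ZT8 replicate 5 mostly red, with the strongest colours for Mki67, whose lowest value lies just past the end of the scale.

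The level of a row mattered for the direction that rows of the array took as a whole. With all rows split by mean signal in 5 bins of equal size, the median difference was 0.07, 0.07, 0.06, 0.00087 and -0.05 from the dimmest to the brightest bin. The members in these bins numbered 1, 3, 14, 12 and 5, with median differences of 0.02, 0.07, -0.00038, -0.02 and -0.08. In the middle bin, which holds 7 of the 12 genes of G2 and mitosis, the members had a median near 0 beside 0.06 for all rows of that level. The gap between these medians was not tested.

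**Figure D4:**
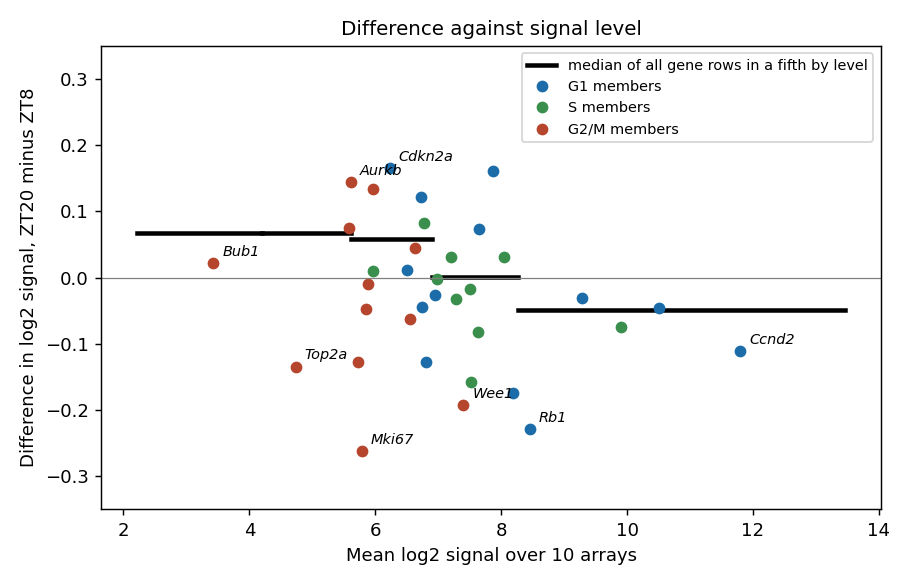
Difference in log2 signal, ZT20 minus ZT8 (vertical axis), against mean log2 signal over the 10 arrays (horizontal axis) for the 35 members (points, coloured by phase), with the median difference of all gene rows in each of the 5 bins by level (black bars). The bars step down from 0.07 at the dim end to -0.05 at the bright end, and the members scatter on both sides of them.

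The promoters are shown for genes whose windows hold the control elements of their phase, next to genes on which the comparison turned. Late cell cycle genes are repressed outside division through the CHR element, TTTGAA, and activated through CCAAT boxes, CCAAT. E2F sites were searched as TTTCCCGC, TTTGGCGC, TTTCGCGC and TTTGCCGC, and the E-box bound by CLOCK and BMAL1 as CACGTG, all on both strands. RefSeq promoters of build GRCm38.p6, from 250 bases before to 50 after the start, were matched by symbol for 25 of the 35 measured members. In the stretches that follow, which end at the base before the start and run 5′ to 3′, capitals mark the CHR elements and CCAAT boxes of 4 genes of G2 and mitosis, written TTCAAA and ATTGG where they lie on the opposite strand.
Cdk1, chr10:69352913-69353002, minus strand: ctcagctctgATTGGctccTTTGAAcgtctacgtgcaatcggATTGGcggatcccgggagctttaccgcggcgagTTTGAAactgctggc
Cdc20, chr4:118437344-118437403, minus strand: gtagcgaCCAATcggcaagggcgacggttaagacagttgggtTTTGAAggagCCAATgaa
Top2a, chr11:99024190-99024299, minus strand: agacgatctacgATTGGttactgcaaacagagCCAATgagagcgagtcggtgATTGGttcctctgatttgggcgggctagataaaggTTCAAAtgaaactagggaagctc
Mki67, chr7:135716380-135716579, minus strand: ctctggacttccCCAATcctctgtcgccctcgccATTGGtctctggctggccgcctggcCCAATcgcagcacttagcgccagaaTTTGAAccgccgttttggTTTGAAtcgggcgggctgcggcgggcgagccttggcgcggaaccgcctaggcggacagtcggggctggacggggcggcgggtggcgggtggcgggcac

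Cdk1, Top2a and Mki67 each carried 2 CHR elements in the whole window and Cdc20 carried 1, the more distant one of Top2a lying before the stretch shown. The CHR letters stood in 7 of 8 promoters of G2 and mitosis, in 1 of 9 of S phase and in 0 of 8 of G1, beside 17.9% of all 32851 promoters. CCAAT boxes stood in 8 of 8, 8 of 9 and 4 of 8, beside 37.4% of all. The genes that share these letters differed in sign, with Cdc20 at -0.13 and Ccnb2 at 0.13. A match of letters is not a measured binding site.

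E2F letters stood in 4 of 9 promoters of S phase genes, 2 of 8 of G1 genes and 1 of 8 of G2 and mitosis, beside 2.26% of all. Mcm6 is printed as the S phase gene with the lowest p and Cdk4 as the gene with the most E-boxes among the 25 windows searched, with the E2F sites of Mcm6, of which a pair overlaps, and the E-boxes of Cdk4 in capitals.
Mcm6, chr1:128359706-128359825, minus strand: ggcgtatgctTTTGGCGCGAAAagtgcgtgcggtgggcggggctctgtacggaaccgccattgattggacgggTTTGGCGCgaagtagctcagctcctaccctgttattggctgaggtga
Cdk4, chr10:127063355-127063534, plus strand: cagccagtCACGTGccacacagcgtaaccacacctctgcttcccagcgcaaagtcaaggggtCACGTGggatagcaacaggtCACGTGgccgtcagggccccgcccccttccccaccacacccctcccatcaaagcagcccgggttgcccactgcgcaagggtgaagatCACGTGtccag

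The letters CACGTG occurred 4 times in the Cdk4 window and once each in those of Cdk6 and Tyms, and in no other of the 25 windows, beside 7.15% of all promoters with at least 1. The promoter of Wee1 was not among the 25 windows and was not searched. None of these 3 genes passed the test, with differences of -0.05, 0.01 and -0.08.

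Further genes of the same machinery, 138 in 5 lists of which 133 were measured, gave 0 at an adjusted p under 0.05 and 15, or 11.3%, at an unadjusted p under 0.05, beside 18.5% of all rows. Their median difference was -0.0029. Of the 23 other G1 genes 1 had a higher and 2 a lower mean at ZT20 at an unadjusted p under 0.05, of the 41 measured S phase genes 6 and 3, of the 43 genes of G2 and mitosis 0 and 1, of the 10 measured DNA damage checkpoint genes 0 and 2, and of the 16 measured regulators of beta-cell replication 0 and 0. The lowest p of these was that of E2f5, a member of the E2F family that works with RB1 relatives as a repressor. It read 7.19, 7.12, 7.19, 7.20 and 7.20 at ZT20, against 7.34, 7.43, 7.37, 7.39 and 7.36 at ZT8, with no overlap. The difference was -0.20 (SE 0.042, 95% interval -0.29 to -0.11), with an adjusted p of 0.0543.

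The Cdk4 and Cdk6 inhibitor gene Cdkn2c was at 6.24 ± 0.0522 at ZT20 and 6.09 ± 0.0336 at ZT8 (SD, n = 5 each), a difference of 0.15 (adjusted p = 0.111). Of the loading factors that put the MCM helicase on DNA, Cdc6 was at 5.87 ± 0.0943 at ZT20 and 5.66 ± 0.0215 at ZT8, and Orc4 at 7.83 ± 0.0997 at ZT20 and 8.05 ± 0.0753 at ZT8 (SD, n = 5 each). They differed in opposite directions, by 0.20 and -0.22, with adjusted p of 0.0781 and 0.0939. Groups that did not overlap were seen in 9 of the 133 genes, 2 of G1 and 7 of S phase, beside 5.92% of all rows. The 7 were Cdc6, Gins2, Mcm10, Tk1 and Chaf1a with ZT20 above, and Orc4 and Orc5 with ZT20 below, chosen here for their values.

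Genes that act around mitosis and in the checkpoints had higher adjusted p. Cdc27, a subunit of the anaphase ubiquitin ligase, differed by -0.16 and Cks2, a CDK-binding protein gene, by 0.16, with adjusted p of 0.182 and 0.295. The replication fork gene Tipin and the checkpoint kinase gene Atm both differed by -0.19, with adjusted p of 0.144 and 0.148. Among the regulators of beta-cell replication Irs2, an insulin receptor substrate, differed by 0.09 and Bmi1, a Polycomb repressor of Cdkn2a, by -0.09, with adjusted p of 0.329 and 0.343.

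Markers of other cell types that islet samples can hold also passed the test in 0 cases, beside 0.744% of all rows. Before adjustment only the fibroblast collagens Col3a1 and Col1a1, at 0.20 and 0.19, and the erythroid gene Alas2, at 0.15, lay under 0.05. Their adjusted p were 0.17, 0.269 and 0.169. They were 2 of 5 fibroblast and 1 of 4 measured erythroid markers, with 0 in the rest of the 8 lists, beside 18.5% of all rows. All 5 fibroblast and all 5 endothelial markers had higher means at ZT20, and all 5 measured acinar markers lower ones. The mean of 5 acinar markers was 10.99 ± 0.558 at ZT20 and 11.19 ± 0.636 at ZT8, and that of 5 fibroblast markers 7.89 ± 0.223 at ZT20 and 7.74 ± 0.216 at ZT8 (SD, n = 5 each). Their part in the differences of the cell cycle genes was not tested.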

How the data were processed

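RNA of 10 islet samples, 5 at ZT20 and 5 at ZT8, was labelled by the WT Pico kit and read on one-colour Affymetrix arrays. The log2 signals per transcript cluster were made by the authors before deposition, by GCRMA according to the heading of a supplementary gene table. Affymetrix Expression Console is the tool in the submitters' processing notes. A statement of its version, its settings or the build was not given in the sources used here. An array design other than that of the deposited rows stands in the paper's methods. Values were used as deposited. The table holds 72688 rows, 65956 of transcripts, of which 32814 name a gene in the array's annotation, 30646 of them 1 gene, 2168 several. Genes with no row were not analysed here.

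Differences were estimated with limma 3.58.1 in R 4.3.3 on these 32814 rows, with Benjamini-Hochberg adjustment over all of them and a call at an adjusted p under 0.05. The methods' t-test was run beside it. The procedure was tested on simulated data. Tables, promoter matches and figures were made with Python 3.11.15, pandas 2.3.3, scipy 1.17.1 and matplotlib 3.10.9.

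The members, the lists and the tests were chosen with earlier results of these data known. All members are named by phase. Values on each array are given for members at an unadjusted p under 0.05, the 2 largest differences of a phase, the D-type cyclins, the G1 inhibitors, Mki67, Top2a and Wee1, and of every further list the 2 genes with the lowest p are named. Cdk6 and Tyms were added to these after their values were seen, and so were the marker genes at an unadjusted p under 0.05. As alternatives, arrays were centred on their medians or quantile normalized, the fit was run on bright rows (above the median level), on every transcript row or on rows with a single gene, rows of a gene were averaged, the replicate number was added as a block, the variance prior was trended and robust, arrays were weighted, the methods' t-test was used, and each array was left out in turn. Correlations with acinar markers and their alternatives were added after seeing the data.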

Additional observations from a re-analysis of the deposited data

Results flagged for a closer look

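One result stood out by the distance of 1 array from the rest of its group. Foxm1, a transcription factor gene of G2 and mitosis, read 5.47 on ZT8 replicate 3, against 5.56 to 5.59 on the other 4 ZT8 arrays. The gap to the nearest array was 0.754 of the range of the group, above Dixon's critical value of 0.71 for 5 samples. Of 70 groups tested, 35 members at 2 times, 1 was past it, where chance gives about 1 in 20, or 3.5. The ZT20 arrays of Foxm1 read 5.55 to 5.69. Mki67 on ZT20 replicate 3 and on ZT8 replicate 5 was not past the value.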

How the results depend on the processing

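The members were recomputed under 20 alternatives, which gave 686 differences. None of these had an adjusted p under 0.05, and the lowest was 0.0954 for Rb1 with a block for the replicate number. In 22 members the sign held throughout and in 13 it turned in at least 1 alternative, 45 differences in all, all in members whose difference as reported was no larger than 0.05 in size. With each array centred on its median the differences were -0.036 for Cdk6, -0.017 for Mcm2, -0.017 for Mcm3, -0.039 for Rrm2, -0.0036 for Aurka and -0.026 for Bub1. After quantile normalization they were 0.029 for Ccnd1, 0.051 for Cdk4, -0.031 for Cdk6, -0.041 for Rrm2 and -0.049 for Bub1, and with array weights -0.027 for Mcm2, 0.018 for Mcm4 and 0.018 for Rrm1. With single arrays left out the ranges were -0.063 to 0.104 for Cdk6, -0.079 to 0.0096 for Ccne1, -0.0599 to 0.014 for Cdkn1c, -0.000602 to 0.079 for Mcm2, -0.027 to 0.11 for Mcm3, -0.0601 to 0.024 for Mcm4, -0.0602 to 0.028 for Rrm1, -0.029 to 0.041 for Rrm2, -0.039 to 0.0094 for Ccna2 and -0.011 to 0.049 for Bub1. The median of the S phase genes was -0.057 after centring and -0.04 to 0.01 without single arrays. Members at an unadjusted p under 0.05 numbered 2 among rows above the median level and 3 to 9 without single arrays. Of all 16407 rows above the median level 897 were higher and 2373 lower at this p. The dimmer members, among them Cdkn2a, Cdc20 and Aurkb, are not in that setting. Without single arrays 2205 to 3942 of all 32814 rows were higher and 2164 to 3235 lower.

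Calls over the whole table moved with the setting. Instead of 244 rows they numbered 603 after centring (64 higher and 539 lower at ZT20, against 58 and 186), 52 after quantile normalization, 467 among rows above the median level, 1 over all transcript rows, 516 with a trended and robust variance prior, 830 with array weights, 2 by the methods' t-test and 1 to 427 without single arrays. The cause was not tested. In the further lists 1 gene passed after centring and 1 among rows above the median level, E2f5 in both (adjusted p = 0.0358 and 0.0318), and 3 with array weights, E2f5, Cdc6 and Orc4 (adjusted p = 0.027, 0.0489 and 0.0475).

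The labels number the replicates 1 to 5 in both groups. With this number as a replicate block 0 members were called, 9 lay under an unadjusted p of 0.05, and 51 rows were called over the table. Of all 32814 rows 4111 were higher and 2998 lower at an unadjusted p under 0.05 with the block. Deviations of arrays with the same number correlated at 0.31, 0.28, -0.13, -0.12 and 0.35, and 3 of 5 correlated best with their own number, a hint from the data only. Nothing in the labels says that a number marks a shared animal, batch or day, and the numbers were not taken as pairs.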

Other observations

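Cdk6, with the largest standard error among the members, was set against the acinar content of the samples. Over the 10 arrays its signal correlated with the mean of 5 acinar markers at Pearson's r = 0.849 (permutation p = 0.0025, adjusted over 35 members 0.0882) and Spearman's rho = 0.830 (permutation p = 0.0047, adjusted 0.16). Without the 2 arrays farthest from the median acinar level, ZT20 replicate 5 and ZT8 replicate 4, r was 0.956. With the duct marker Krt19 in place of the acinar markers it was 0.888. Correlations of Cdk6 with the other measured duct markers, Krt7, Sox9 and Cftr, were not computed, and these markers did not move alike. Krt7 ran opposite to Cdk6 at both ends. It was lowest, at 9.23, on ZT20 replicates 1 and 4 and ZT8 replicate 1, where Cdk6 was highest at 6.80, 6.63 and 6.86. On ZT20 replicate 3, where Cdk6 was lowest at 6.19, Krt7 was highest at 9.41. Sox9 was highest, at 7.57, on ZT8 replicate 1, and read 7.28 and 7.05 on ZT20 replicates 1 and 3. Cftr read 3.30 and 3.32 on these 2 ZT20 arrays. Cdkn1c had r = 0.761 and Rrm2 r = 0.717, with permutation p of 0.0169 and 0.0219. Of the 35 members 3 lay under an unadjusted p of 0.05 and 0 after adjustment, so that the relation of Cdk6 did not pass the correction. The relation was looked for after the spread of Cdk6 had been seen.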
